A study of Mus musculus with 6 samples.

Results

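The genes examined here encode 10 brakes on extracellular signal-regulated kinase (ERK) signaling, namely the dual-specificity phosphatases Dusp1, Dusp3, Dusp4, Dusp5, Dusp6 and Dusp14, the Sprouty genes Spry2 and Spry4, and the Sprouty-related genes Spred1 and Spred2. They were chosen as members of these families that act on the pathway, with earlier results of these data known, and each symbol matched 1 Ensembl identifier in GENCODE M21 among the 60354 features that were counted. Gene expression was measured by RNA-seq of polyadenylated RNA in the whole brain of 6 male C57BL/6NCrSlc mice, which were 16 weeks old when the diets began. The 3 PLDP mice (mice 17, 22 and 26) were given food for 16 weeks of which 20% was PLDP, a protease-treated decomposition product of porcine liver, the rest being modified AIN-93M, and the 3 control mice (mice 2, 5 and 10) were given modified AIN-93M adjusted in calories. All mice then went through the same series of behavioral tests, during which no PLDP was fed, and the RNA was taken the day after the last test. The comparison asks whether long-term PLDP ingestion goes along with a different expression of these genes.

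ERK is switched on by growth factor receptors and by synaptic activity through Ras, Raf and MEK, and it drives the transcription of early response genes in neurons. The dual-specificity phosphatases remove phosphate from the threonine and tyrosine of activated MAP kinases, while Sprouty and Spred proteins act further upstream, between the receptor and Raf. Several of these genes are themselves transcribed in response to ERK, so that their RNA belongs to a negative feedback loop and is often read as a trace of recent pathway activity.

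All 10 genes passed the filter on low counts. Of these, 6 were higher in PLDP than in control mice by edgeR's quasi-likelihood test with an unadjusted p below 0.05, the threshold used for a call, and 0 were lower. DESeq2 and limma voom each called 5 higher, without Dusp1, and also 0 lower, while they called 3.04% and 4.91% of all features higher. Over all 18580 features tested, 4.91% were called higher and 3.69% lower. The genes called higher were Dusp4, Dusp5, Spred2, Dusp14, Spry4 and Dusp1, in order of p. The log2 fold change was positive for all 10 genes, with a median of 0.186, against a median of -0.001 over all features tested. No member passed 0.05 after Benjamini-Hochberg adjustment over all features in edgeR's quasi-likelihood test (0.0323% of the features did), and the smallest adjusted p of a member was 0.147. By edgeR's likelihood ratio test and by its exact test, 2 members passed, Dusp4 and Dusp5, as did 0.404% and 0.35% of all features. By DESeq2 and by limma voom 0 members passed, and 0.124% and 0.0161% of all features did. The number of calls depended on single mice. It was 2 without PLDP mouse 22 (Dusp4 and Dusp5), 3 without control mouse 10 and 9 without PLDP mouse 17. Over all features, those fits called 793 of 18881, 936 of 19005 and 1293 of 18848 higher, in the same order. In whole-brain RNA, a lower or higher share of the cells that express a gene cannot be told apart from a different amount of RNA per cell.

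**Figure D1:**
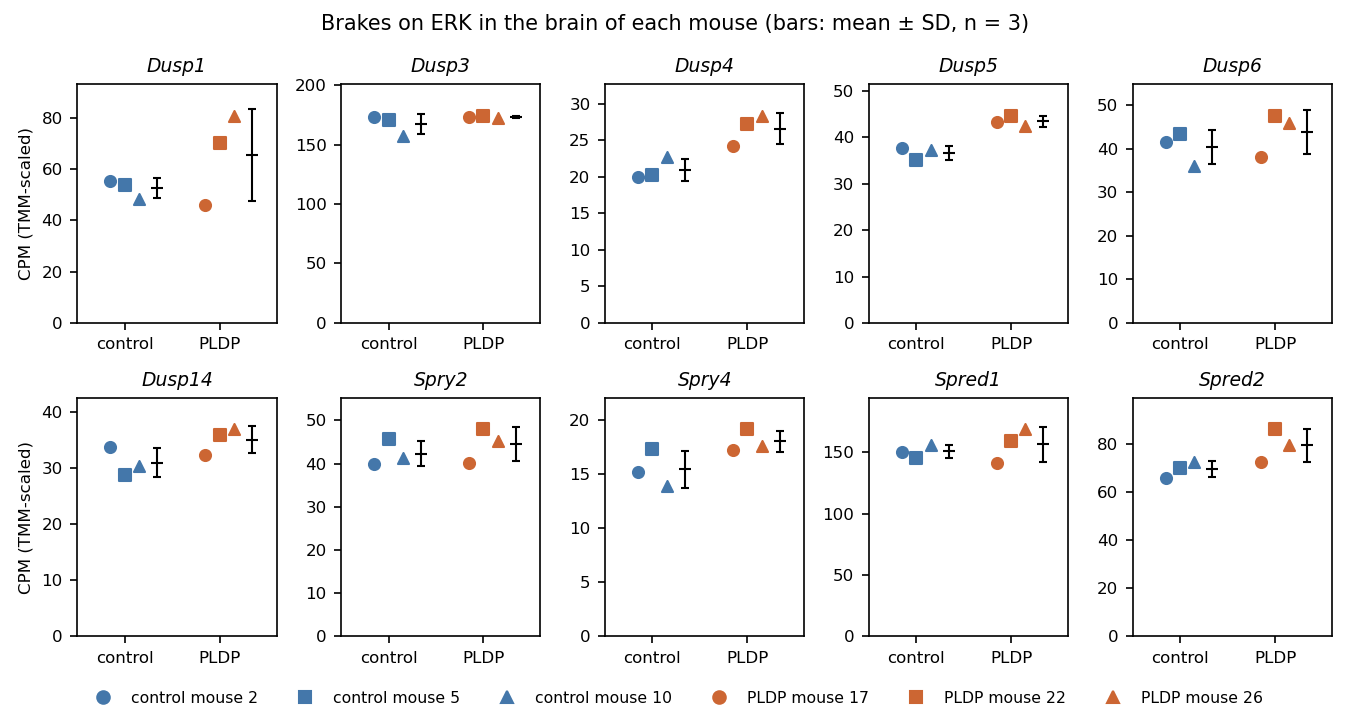
CPM after TMM scaling (y axis, starting at 0) of each of the 10 genes in each mouse, with control mice in blue and PLDP mice in orange and the mean ± SD (n = 3 mice per diet) as black bars. In Dusp4, Dusp5 and Spred2 all 3 PLDP mice lie above all 3 control mice, and in Dusp1 the PLDP mice are spread most widely.

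Dusp4, a nuclear phosphatase that is induced by ERK and acts on it, had the smallest p among the 10 genes. It (ENSMUSG00000031530, chromosome 8 of GRCm38 from 34807297 to 34819894, plus strand) had 19.9, 20.2 and 22.7 CPM in control mice 2, 5 and 10, and 24.3, 27.2 and 28.4 CPM in PLDP mice 17, 22 and 26, where CPM is the count scaled to library size with TMM factors. Every PLDP mouse was thus above every control mouse, and mouse 17 was the lowest of the PLDP mice. Group means were 20.9 ± 1.53 CPM in control and 26.6 ± 2.11 CPM in PLDP mice (SD over 3 mice). The log2 fold change of 0.35 had a standard error of 0.08 and a 95% interval from 0.18 to 0.51 (Benjamini-Hochberg adjusted p = 0.147, edgeR's quasi-likelihood test). Dusp4 was called in all 6 fits that left out 1 mouse.

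Dusp5, a nuclear phosphatase that is selective for ERK, was the most tightly grouped of the genes called higher. It (ENSMUSG00000034765, chromosome 19 from 53529109 to 53542431, plus strand, with 1 antisense gene annotated on the other strand) had 37.8, 35.0 and 37.3 CPM in the control mice and 43.3, 44.7 and 42.4 CPM in the PLDP mice, listed in the same order of mice. The groups did not overlap, and the PLDP mice were close to each other. Group means were 36.7 ± 1.46 CPM in control and 43.5 ± 1.16 CPM in PLDP mice (SD over 3 mice). This was a log2 fold change of 0.25 (standard error 0.06, 95% interval 0.13 to 0.37, edgeR adjusted p = 0.147), and Dusp5 too was called in all 6 fits that left out 1 mouse.

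Dusp1, the immediate early phosphatase that acts in the nucleus on several MAP kinases, had a larger estimated change than Dusp5 but a far wider spread. It (ENSMUSG00000024190, chromosome 17 from 26505590 to 26562128, minus strand) had 55.4, 53.9 and 48.3 CPM in the control mice and 45.8, 70.1 and 80.8 CPM in the PLDP mice. PLDP mouse 17 was therefore the lowest of the 6 mice and PLDP mice 22 and 26 were the highest, so that the PLDP values enclosed the control values. Group means were 52.5 ± 3.75 CPM in control and 65.6 ± 17.9 CPM in PLDP mice (SD over 3 mice), and the log2 fold change was 0.32 (standard error 0.13, 95% interval 0.04 to 0.59, edgeR adjusted p = 0.501). The call was lost without control mouse 10, PLDP mouse 22 or PLDP mouse 26, and it was not made by DESeq2 or limma voom. In GENCODE M21, 2 genes overlap Dusp1 on its own strand and 2 on the other, and whether the reads were counted by strand is not given in the sources used here.

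Since Dusp1 and Dusp5 are known to be switched on quickly by stimulation, their promoters are shown with the letters that early response factors read. The windows come from RefSeq (build GRCm38.p6), which gave a window for 8 of the 10 genes, and the first 200 bases of the window are printed 5′ to 3′ on the strand of the gene, ending 50 bases before the RefSeq start. Capitals mark the cyclic AMP response element (CRE) TGACGTCA in Dusp1 and the CArG boxes, the sites of serum response factor, in Dusp5.
Dusp1 promoter, chr17:26508523-26508722, minus strand: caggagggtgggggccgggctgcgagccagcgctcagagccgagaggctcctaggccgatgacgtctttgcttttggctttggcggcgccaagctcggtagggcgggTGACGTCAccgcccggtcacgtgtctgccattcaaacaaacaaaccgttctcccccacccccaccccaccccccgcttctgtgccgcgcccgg
Dusp5 promoter, chr19:53528895-53529094, plus strand: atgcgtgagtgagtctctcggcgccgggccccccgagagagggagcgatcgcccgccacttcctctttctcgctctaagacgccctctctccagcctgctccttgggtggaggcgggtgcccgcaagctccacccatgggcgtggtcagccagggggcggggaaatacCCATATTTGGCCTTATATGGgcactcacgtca

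In the 250 bases before the RefSeq start, searched on both strands, Dusp1 held 1 CRE with 135 bases between it and the start. A CRE was found in 1.55% of the 32851 promoter windows of that length. Dusp5 held 2 CArG boxes side by side, 72 and 62 bases before the start, and 1.47% of the windows held at least 1. None of the 8 windows had a match to the AP-1 letters TGANTCA (6.75% of all windows), the EGR letters GCGNGGGCG (4.70%) or the ETS letters CCGGAAGT (2.88%). The shorter CRE half-site TGACG, which also lies within the full CRE, was found in Dusp1, Dusp5 and Spred2, and in 17.8% of all windows. These matches describe the letters in the windows only.

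Dusp6, the cytoplasmic phosphatase that holds ERK outside the nucleus and is a widely used readout of fibroblast growth factor signaling, was not called. It (ENSMUSG00000019960, chromosome 10 from 99263231 to 99267489, plus strand) had 41.5, 43.5 and 35.9 CPM in the control mice and 38.1, 47.6 and 45.9 CPM in the PLDP mice. PLDP mouse 17 lay inside the control range and PLDP mice 22 and 26 above it. The log2 fold change was 0.12 (standard error 0.08, 95% interval -0.05 to 0.29, edgeR adjusted p = 0.718), and its interval includes the estimate for Dusp5. When PLDP mouse 17 was left out, Dusp6 was called higher, as were Spry2 and Spred1.

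Dusp3 and Dusp14 are small atypical dual-specificity phosphatases, which lack the kinase-binding domain of the other members. Dusp3 (ENSMUSG00000003518, chromosome 11 from 101971143 to 101987013, minus strand, overlapped by 2 genes on the other strand) had 173.2, 170.3 and 157.2 CPM in the control mice and 173.1, 174.3 and 172.1 CPM in the PLDP mice. Control mouse 10 was the lowest, and the other mice were close to each other. The log2 fold change of Dusp3 was 0.05 with a 95% interval from -0.04 to 0.15 (edgeR adjusted p = 0.781), so a rise as large as the estimate of 0.35 for Dusp4 lies outside its interval. Dusp14 (ENSMUSG00000018648, chromosome 11 from 84048041 to 84069261, minus strand) had 33.7, 28.7 and 30.4 CPM in the control mice and 32.4, 35.8 and 36.9 CPM in the PLDP mice. PLDP mouse 17 was below control mouse 2, while PLDP mice 22 and 26 were above every control mouse. Group means of Dusp14 were 30.9 ± 2.52 and 35.0 ± 2.35 CPM (SD over 3 mice), a difference of 0.18 on the log2 scale (standard error 0.07, 95% interval 0.03 to 0.33, edgeR adjusted p = 0.484). The call for Dusp14 held in 2 of the 6 fits without 1 mouse and was lost without control mouse 5, control mouse 10, PLDP mouse 22 or PLDP mouse 26.

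Among the genes that act upstream of Raf, Spred2 and Spry4 were called higher and Spred1 and Spry2 were not. Spred2, which binds Ras and neurofibromin and keeps Raf from being activated (ENSMUSG00000045671, chromosome 11 from 19924375 to 20024026, plus strand), had 66.0, 70.0 and 72.5 CPM in the control mice and 72.5, 86.2 and 79.6 CPM in the PLDP mice. The groups did not overlap, although PLDP mouse 17 was only just above control mouse 10. Group means of Spred2 were 69.5 ± 3.26 and 79.4 ± 6.84 CPM (SD over 3 mice), a difference of 0.19 on the log2 scale (standard error 0.06, 95% interval 0.07 to 0.32, edgeR adjusted p = 0.347). Its call was lost without PLDP mouse 22. Spred1, its close relative, whose loss causes a syndrome resembling neurofibromatosis (ENSMUSG00000027351, chromosome 2 from 117121374 to 117182279, plus strand), had 150.7, 145.4 and 156.2 CPM in the control mice and 141.2, 159.7 and 169.0 CPM in the PLDP mice. PLDP mouse 17 was the lowest of all and PLDP mouse 26 the highest. The log2 fold change of Spred1 was 0.05 (95% interval -0.06 to 0.17, edgeR adjusted p = 0.835), and it was -0.003 without PLDP mouse 26.

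Spry4, a Sprouty protein that is induced by growth factors (ENSMUSG00000024427, chromosome 18 from 38586247 to 38601415, minus strand, overlapped by 2 genes on the other strand), had the lowest level among these genes. Its values were 15.2, 17.3 and 13.9 CPM in the control mice and 17.3, 19.2 and 17.6 CPM in the PLDP mice. The PLDP mice were above control mice 2 and 10, and PLDP mouse 17 was level with control mouse 5. Group means of Spry4 were 15.5 ± 1.70 and 18.0 ± 1.01 CPM (SD over 3 mice). The log2 fold change was 0.22 (standard error 0.09, 95% interval 0.03 to 0.41, edgeR adjusted p = 0.492), and the call held in 3 of the 6 fits without 1 mouse, being lost without control mouse 2, control mouse 10 or PLDP mouse 22. Spry2, the Sprouty gene that is best known as an inhibitor of fibroblast growth factor signaling (ENSMUSG00000022114, chromosome 14 from 105891947 to 105896819, minus strand), had 39.9, 45.6 and 41.4 CPM in the control mice and 40.2, 48.0 and 45.3 CPM in the PLDP mice. Its groups overlapped almost fully, with a log2 fold change of 0.07 (95% interval -0.07 to 0.22, edgeR adjusted p = 0.823).

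**Figure D2:**
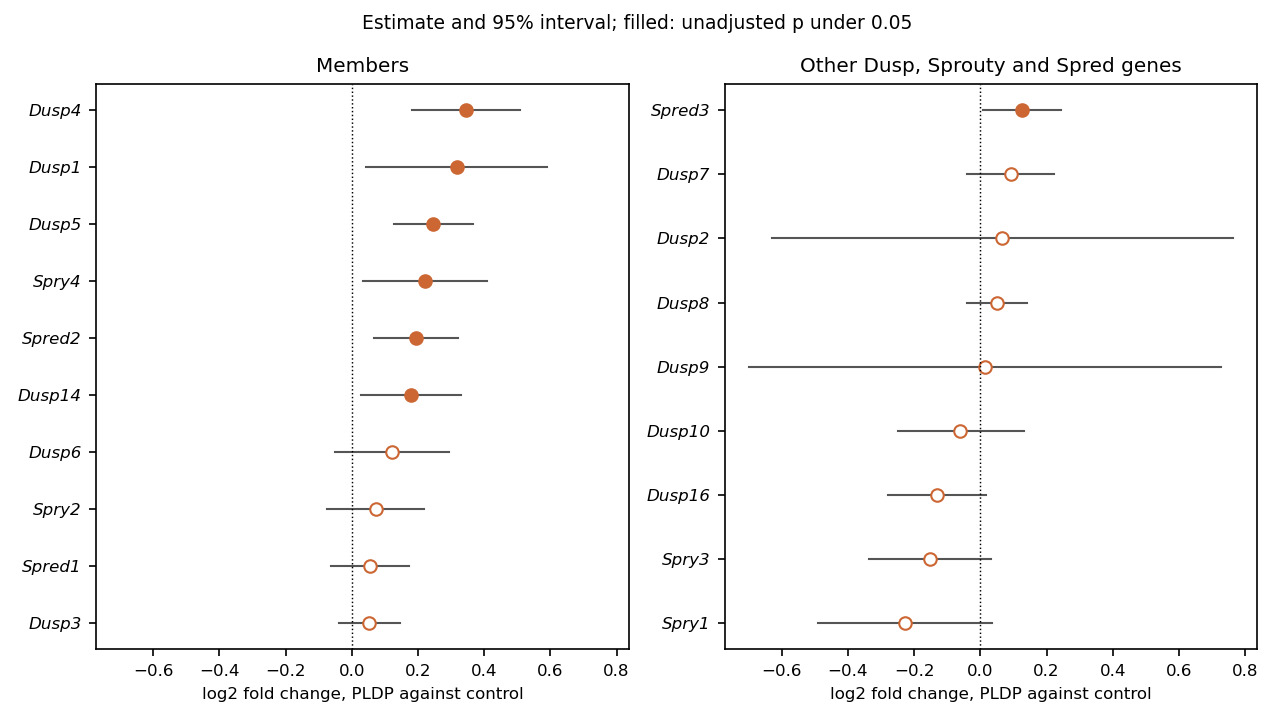
Log2 fold change of PLDP against control mice (x axis) with its 95% interval, for the 10 genes (left) and for the other Dusp, Sprouty and Spred genes examined (right), with filled points for an unadjusted p under 0.05. The 10 genes lie to the right of 0, from 0.05 for Dusp3 to 0.35 for Dusp4, while the other genes lie on both sides of it, from -0.23 for Spry1 to 0.13 for Spred3. Both sets were chosen with earlier results of these data known.

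The mice differed within the PLDP group in the same way for most of these genes. In 6 of the 10 genes PLDP mouse 22 had the highest value of all mice and in the other 4 it was PLDP mouse 26, and both were above the mean of the control mice for all 10 genes. PLDP mouse 17 was above the control mean for 6 genes and was the lowest of all mice for 2, Dusp1 and Spred1. The median deviation from the control mean over the 10 genes was 0.06 on the log2 scale in PLDP mouse 17, 0.27 in mouse 22 and 0.20 in mouse 26, and between -0.03 and 0.02 in the control mice. The groups separated completely, with every PLDP mouse above every control mouse, in 3 of the 10 genes and in 7.29% of all features tested.

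**Figure D3:**
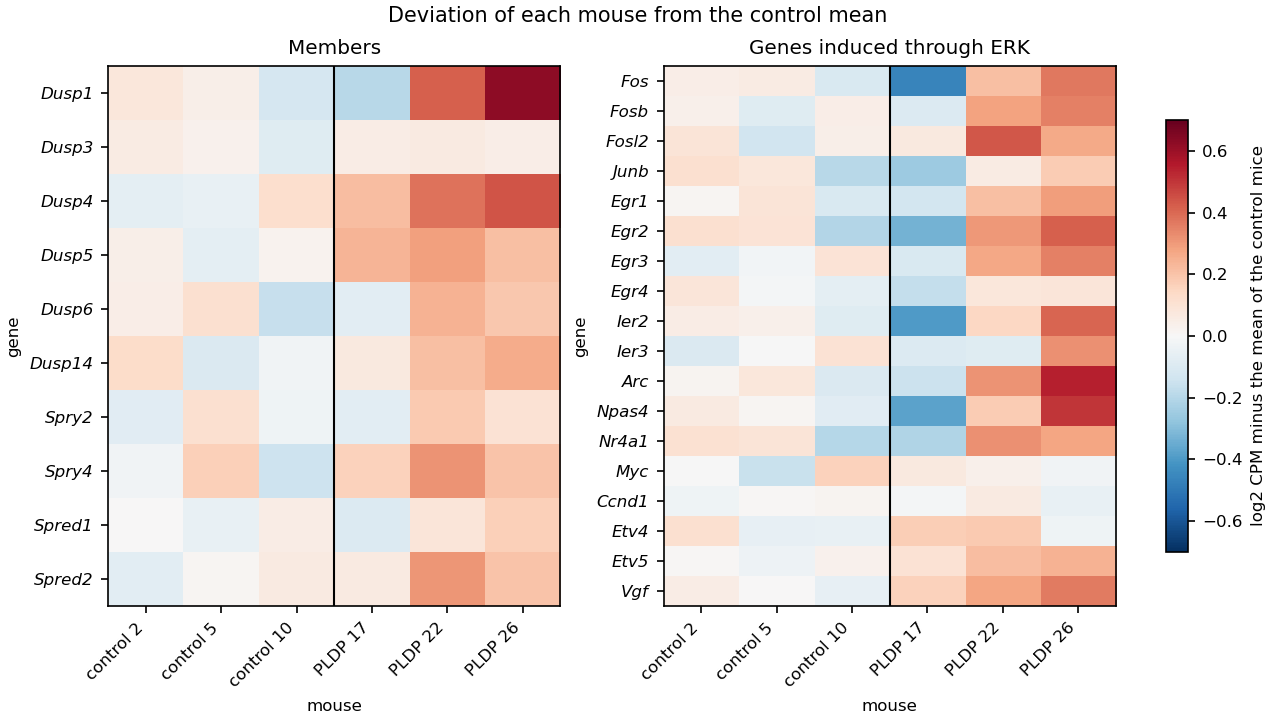
Log2 CPM of each mouse minus the mean of the control mice (color scale, log2 units; columns are mice, rows are genes) for the 10 genes and for 18 genes induced through ERK. PLDP mice 22 and 26 are red for all 10 genes, while PLDP mouse 17 is blue for Dusp1, Dusp6, Spry2 and Spred1 and red for Dusp4 and Dusp5.

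Compared per exon length, Dusp3 had the highest level of the 10 genes with a mean of 36.3 CPM per kb of exon (range over the 6 mice 33.6 to 37.2), and no mouse of another gene reached this range. Spred1 (22.7), Spry2 (20.8), Dusp1 (17.8), Dusp14 (16.9), Dusp5 (16.2), Spred2 (16.1) and Dusp6 (13.4 CPM per kb) followed, and each of these overlapped its neighbors in the order. Dusp4 (8.68, range 7.27 to 10.4) and Spry4 (3.52, range 2.93 to 4.03 CPM per kb) were lower, and neither overlapped the gene above it. The gene with the smallest p was therefore among those with the lowest levels. Dusp4 rested on 414 to 648 counts per mouse and Spry4 on 287 to 457. The length is that of all annotated exons of the gene together, which for Dusp1 includes exons far upstream of its main body.

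**Figure D4:**
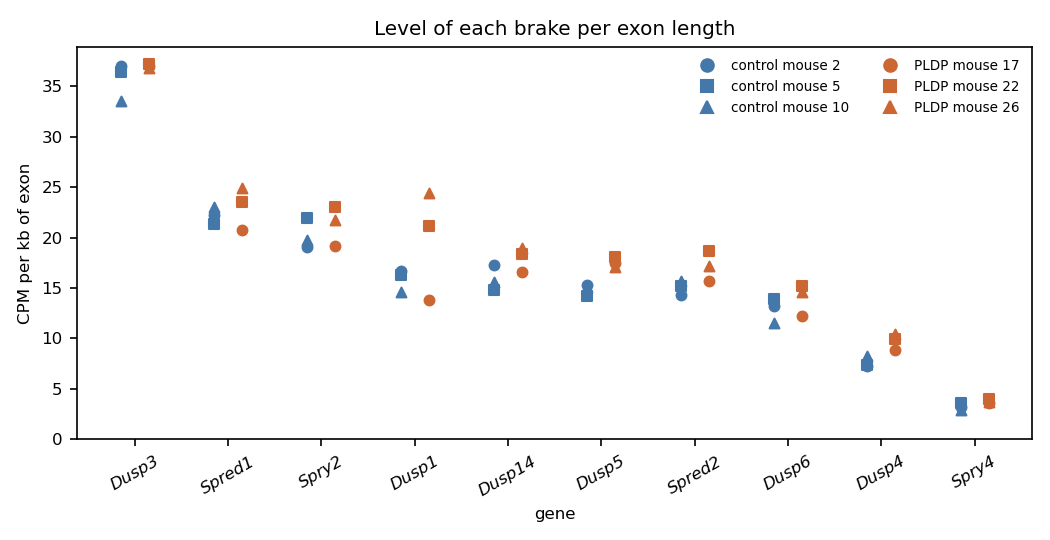
CPM per kb of exon (y axis, starting at 0) of each gene in each mouse, ordered by the mean over the 6 mice, with control mice in blue and PLDP mice in orange. Dusp3 stands above the other genes at 33.6 to 37.2 and Spry4 is lowest at 2.93 to 4.03.

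The other genes of the pathway were grouped by their role. Another 20 genes were listed as brakes on Ras and ERK or as relatives of the members. Of these, 2 were called higher and 0 lower, with a median log2 fold change of 0.03. Spred3, the third gene of the Spred family, was among them (48.1 ± 3.01 CPM in control and 52.5 ± 0.418 CPM in PLDP mice, SD over 3 mice, log2 fold change 0.13, edgeR adjusted p = 0.538). The count was 4 higher without PLDP mouse 17 and 1 without control mouse 2, control mouse 10, PLDP mouse 22 or PLDP mouse 26. The phosphatases of the same family in this list, Dusp7, Dusp8, Dusp10 and Dusp16, had log2 fold changes of 0.09, 0.05, -0.06 and -0.13, and Spry1 and Spry3 of -0.23 and -0.15, none of them called. These phosphatases were listed by family, and not all of them act mainly on ERK. Dusp2 and Dusp9, at 0.433 to 1.11 CPM, were too low for a narrow interval.

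Among 24 growth factors and receptors that feed the pathway, 4 were called higher and 2 lower. Bdnf, the ligand of the receptor TrkB, was the gene of this list with the smallest p and rose by 0.36 on the log2 scale (edgeR adjusted p = 0.0911). The fibroblast growth factor receptors Fgfr3 and Fgfr2 fell, Fgfr3 from 119.2 ± 1.36 to 103.4 ± 4.50 CPM and Fgfr2 from 63.5 ± 1.37 to 55.8 ± 3.69 CPM (SD over 3 mice). Their log2 fold changes were -0.20 and -0.18, and the Benjamini-Hochberg adjusted p from edgeR was 0.136 for Fgfr3 and 0.318 for Fgfr2. In both, every PLDP mouse was below every control mouse. Igf1r and Ntrk3 were also called higher and are named although they were not among the 3 smallest p of their list. Of 24 genes of the Ras-Raf-MEK-ERK core, only the adaptor gene Shc3 was called (log2 fold change 0.15, edgeR adjusted p = 0.45), and it was called higher. The number called higher was 4 without PLDP mouse 17 and 0 without control mouse 10, PLDP mouse 22 or PLDP mouse 26, and 1 gene was called lower in each of these 4 fits. Mapk3, an ERK gene, was not called, with a log2 fold change of -0.02 and a 95% interval from -0.11 to 0.07. Of 11 kinases and transcription factors that ERK activates, Elk4 was called higher, with a log2 fold change of 0.27 (edgeR adjusted p = 0.306).

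Of 18 genes induced through ERK, 6 were called higher and 0 lower, with a median log2 fold change of 0.13. Vgf, Etv5 and Fosl2 had the smallest p. Etv5, a transcription factor that is commonly induced together with the Sprouty genes, had 70.4 ± 1.59 CPM in control and 80.2 ± 4.20 CPM in PLDP mice (SD over 3 mice, log2 fold change 0.19, edgeR adjusted p = 0.271), with every PLDP mouse above every control mouse. Fosl2 had 60.6 ± 4.82 and 72.6 ± 9.04 CPM (log2 fold change 0.26, edgeR adjusted p = 0.306), and Vgf 215.6 ± 8.17 and 260.1 ± 18.3 CPM (log2 fold change 0.27, edgeR adjusted p = 0.0735). The others called were Arc, Egr3 and Fosb, and Fos itself was not called (log2 fold change 0.08, 95% interval -0.20 to 0.35). PLDP mouse 17 had the lowest value of all mice in 11 of these 18 genes, among them Fos with 42.6 CPM against 54.5 to 61.1 in the control mice and 67.9 and 75.8 in PLDP mice 22 and 26. The summed level of the 18 genes was 1264 CPM in PLDP mouse 17, 1590 and 1688 in PLDP mice 22 and 26, and 1279 to 1379 in the control mice. The count of genes called higher in this list was 12 without PLDP mouse 17, 3 without control mouse 2, PLDP mouse 22 or PLDP mouse 26, and 3 by DESeq2 or limma voom. The part of these early response genes in the values of the brakes was not tested.

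Dusp1 is also a known target of the glucocorticoid receptor. Of 14 genes of the glucocorticoid response, 8 were called higher and 0 lower, with Mt2, Hif3a and Zbtb16 having the smallest p and log2 fold changes of 0.37, 0.81 and 0.79. The summed level of the 14 genes was 860 to 980 CPM in the control mice and 971 to 1072 CPM in the PLDP mice. In PLDP mouse 17, which had the lowest Dusp1, it was 999.6 CPM. Their part in the values of Dusp1 was not tested.

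With predicted, clone, numbered and mitochondrial genes left out, the 5 genes whose profile over the 6 mice was most like that of Dusp4 were Nptx2, Malat1, Thbd, Notch4 and Cfp. The mean absolute difference between their profile and that of Dusp4, in log2 CPM after subtracting the mean of each gene, was 0.04 for each of them. Nptx2, a synaptic pentraxin, had 42.1, 42.5 and 45.8 CPM in the control mice and 46.8, 55.0 and 55.9 CPM in the PLDP mice. Among the other members, Spred2 (0.08) and Dusp5 (0.09) were nearest to Dusp4, and Dusp1 (0.20) was farthest. Of all genes tested, 108 were nearer to Dusp4 than Spred2 was, 178 were nearer than Dusp5 and 8978 were nearer than Dusp1.

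Depth was similar between the diets, with 18797061 to 23938729 counts per mouse. The labelled tissue was checked against markers of neurons, astrocytes, oligodendrocytes, microglia and 8 other cell types or regions, and all markers measured had counts in every mouse. Genes were called in 7 of the 12 marker lists, and no gene was called in those of neurons, meninges, blood, striatum and cerebellum. The brainstem markers were lower in the PLDP mice, with 7 of 8 called lower (Slc6a5, Glra1 and Hoxb3 with the smallest p) and a summed level of 82.8 to 115.7 CPM against 145.9 to 160.4 in the control mice. Those of forebrain projection neurons summed to 1117 to 1162 CPM in the PLDP mice and 1051 to 1104 in the control mice, with 2 of 7, Fezf2 and Rorb, called higher. Of the endothelial markers, 2 of 8, Pecam1 and Flt1, were called higher (summed 234.4 to 254.2 against 235.0 to 239.7 CPM), and of the choroid plexus markers 2 of 6, Ttr and Folr1, were called lower (584.2 to 740.2 against 744.8 to 798.7 CPM). Among astrocyte markers Aqp4, among oligodendrocyte markers Mbp, and among microglial markers P2ry12 were called lower. None of the 7 oligodendrocyte, 6 microglial, 6 choroid plexus and 5 blood markers had a positive log2 fold change. The summed level of the microglial markers was 291.4 to 295.7 CPM in the PLDP mice, below every control mouse, of which the highest had 313.6 CPM. The part of these differences in the values of the 10 genes was not tested.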

How the data were processed

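Libraries of polyadenylated RNA were made with a stranded kit from the whole brain of 3 control and 3 PLDP mice, and 1 file per mouse was used. The authors deposited raw read counts per gene without normalization. The submitters' processing notes name cutadapt 2.9, HISAT2 2.2.0, featureCounts 2.6.0 and DESeq2 1.6.3 and the builds GRCh38 and GRCm38. The strand setting and the treatment of reads shared between genes are not given in the sources used here.

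Symbols, coordinates and exon lengths came from GENCODE M21 (GRCm38), in which 54777 of the 55034 Ensembl identifiers were found, and 5320 numbered features were kept. The main test was the quasi-likelihood test of edgeR 4.0.16 (glmQLFit, glmQLFTest; R 4.3.3), which compared the diets with no other term, after filterByExpr (minimum count 10, minimum total 15) and TMM scaling. A call was an unadjusted p under 0.05, the threshold of the study, and adjusted p are Benjamini-Hochberg values over all 18580 features. Standard errors were the log2 fold change divided by the square root of F, and 95% intervals used the total degrees of freedom. The labels name single mice, so the replicates are animals.

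The members and gene lists were chosen with earlier results of these data known. Besides the 10 members, up to 3 genes with the smallest unadjusted p under 0.05 were named per list, together with the 5 genes most like the member with the smallest p. Predicted, clone, numbered and mitochondrial genes were left out of the search for those 5. Exceptions named after their values were seen are Igf1r, Ntrk3, Arc, Egr3, Fosb, Fos, Mapk3 and the further Dusp and Spry genes. Some genes that the rule names are not reported here. Alternatives were other filters and scalings, DESeq2 1.42.0, edgeR's likelihood ratio and exact tests, limma 3.58.1 voom, and leaving out each mouse. The scripts were tested on simulated data. Plots were drawn with matplotlib 3.10.9.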

Additional observations from a re-analysis of the deposited data

How the results depend on the processing

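The number of the 10 genes called higher was 4 to 6 under all 10 alternatives of filter, scaling and test, and the 0 called lower did not change under any of them or without any mouse. Leaving out 1 mouse gave from 2 genes (without PLDP mouse 22) to 9 (without PLDP mouse 17) called higher, with 3 without control mouse 10. Over all features, 793 were called higher without PLDP mouse 22, 1293 without PLDP mouse 17 and 936 without control mouse 10. The number passing an adjusted p of 0.05 was 0 by edgeR's quasi-likelihood test, 3 with no filter on low counts, 2 by edgeR's likelihood ratio test, 2 by its exact test, and from 0 to 4 when 1 mouse was left out, the 4 without PLDP mouse 17. The cause was not tested. The log2 fold changes were positive for all 10 genes under every alternative except without PLDP mouse 26, when 9 were and that of Spred1 was -0.003 (its range over the fits without 1 mouse reached 0.124, without PLDP mouse 17). Their median was between 0.143 (without PLDP mouse 22 or 26) and 0.241 (without PLDP mouse 17). Dusp4 and Dusp5 were called under all 16 alternatives. Dusp1 was not called by DESeq2, with or without the filter, or by limma voom, and Spry4 was not called by DESeq2 without the filter. Over all features, DESeq2 called 564 higher and 362 lower, against 913 and 685 in the main test, and the number passing the adjustment was 6 in the main test, 180 with no filter and 182 without PLDP mouse 17. No paired analysis was possible because the mouse numbers are not shared between the diets. The p-values set the difference between the diets against the spread between these mice, which the tests estimate in part over all features.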
